A study of Caenorhabditis elegans with 2 samples.

Results

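Proteasome subunit genes were examined in a chromatin immunoprecipitation sequencing (ChIP-seq) experiment on the zinc finger protein ZTF-4 in *Caenorhabditis elegans*. They were taken by name, as all protein-coding genes called pas-, pbs-, rpt- or rpn- in the WBcel235 annotation, which gave 33 genes of 19973 protein-coding genes outside the mitochondrial genome. The core particle accounted for 14 of them and the regulatory particle for 19. The animals were whole L2 larvae of strain OP322, of both sexes, with the genotype unc-119(ed3) III; wgIs322. The inserted transgene wgIs322 expresses ZTF-4 tagged with eGFP, a green fluorescent protein, and both libraries come from this 1 strain. The series held 1 group with 2 biological replicates, so no treated and untreated animals were compared. A control was listed for the experiment but was not analysed here. Whole larvae mix all tissues, so a site in few cells and a weak site in many cells cannot be told apart.

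The proteasome is the protease complex that degrades proteins tagged with ubiquitin. Its barrel, the core particle, has outer rings of alpha subunits, which gate the entrance, and inner rings of beta subunits, some of which cut peptide bonds. The regulatory particle caps the barrel: a ring of ATPases (rpt genes) unfolds the substrate, and non-ATPase subunits (rpn genes) bind ubiquitin, remove it and hold the lid together. In *C. elegans* the transcription factor SKN-1 is known to raise expression of proteasome subunit genes when proteasome function is impaired.

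ZTF-4 peaks lay near a start site of 7 of the 33 proteasome genes, or 21.2%, against 5.18% of all protein-coding genes. A peak here is a region that the authors kept after a filter on the irreproducible discovery rate, a measure of how well region ranks agree between replicates. A gene was counted where a peak summit was at most 500 bp from one of its annotated starts, so 1 peak can count for several genes. The genes were rpn-3, rpt-2, rpn-11, pbs-1, pas-4, rpt-4 and rpt-1. Core particle genes had peaks at 2 of 14 and regulatory particle genes at 5 of 19. By ring, peaks were at 1 of 7 alpha genes, 1 of 7 beta genes, 3 of 6 ATPase genes and 2 of 13 non-ATPase genes. These shares were not tested against each other, and the genes were chosen with earlier results of these data known.

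The highest of these peaks lay at rpn-3, which encodes a subunit of the lid. Its summit was 198 bp upstream of the start site, in the region III:8447065-8447266. It had a signal value of 305.04 and ranked 31 of 1794 peaks, and its regions ranked 41 in replicate 1 and 32 in replicate 2 out of 30000 regions each. Signal values are the authors' own, on a scale not given in the sources used here, and they only rank regions within a list. The other 6 peaks lay far below rpn-3, with signals from 63.6 to 100.97. The median over all peaks was 82.95 and the lowest peak had 60.2.

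At rpt-2, an ATPase gene, the signal was 100.97 and the peak ranked 579, with ranks of 734 in replicate 1 and 512 in replicate 2. The peak at rpn-11, the gene for the subunit that removes ubiquitin from substrates, had a signal of 86.9 and ranked 810, with ranks of 1134 in replicate 1 and 949 in replicate 2. That of pbs-1, a beta ring gene whose yeast and human counterparts are catalytic, had a signal of 83.1 and ranked 893, with ranks of 859 in replicate 1 and 1458 in replicate 2. These 3 genes and rpn-3 were high in both replicates. Their peaks were the only proteasome peaks to overlap one of the 1794 highest regions of each replicate (4 of 33 genes, 12.1%, against 3.45% of all protein-coding genes). Such overlap held for 1138 of all 1794 peaks. Of the 1034 protein-coding genes with a peak, 690 had a peak of this kind. The 4 of 7 proteasome peaks are thus near the share over all peaks.

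The 3 remaining peaks were high in a single replicate. The peak of pas-4, an alpha ring gene, had a signal of 72.9 and ranked 1209, with ranks of 3481 in replicate 1 and 957 in replicate 2. The ATPase gene rpt-4 had a signal of 68.99 and a rank of 1359, with ranks of 1091 in replicate 1 and 3643 in replicate 2. The ATPase gene rpt-1 had a signal of 63.6 and a rank of 1619, with ranks of 1504 in replicate 1 and 2973 in replicate 2. Replicate 2 alone thus placed pas-4 among its top regions, and replicate 1 alone placed rpt-4 and rpt-1 there.

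**Figure D1:**
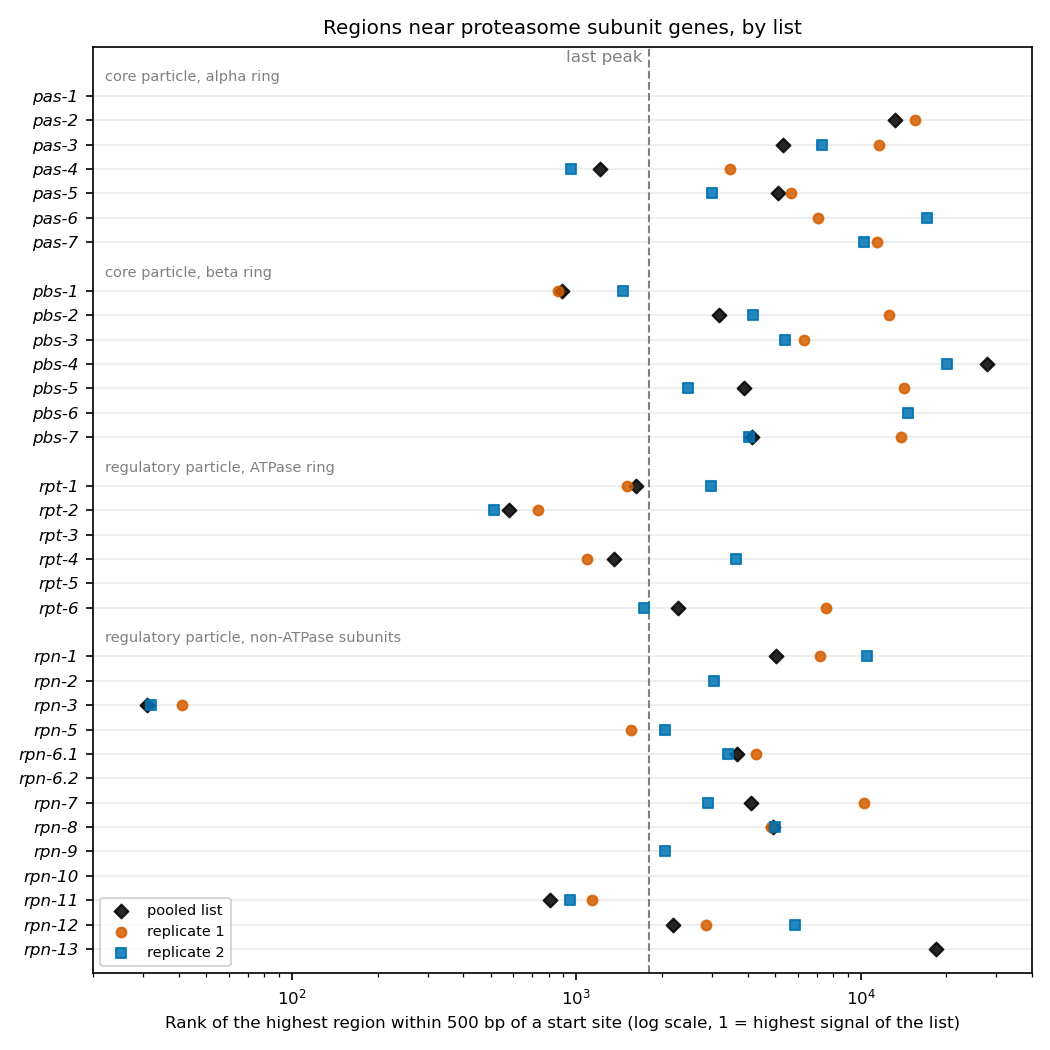
Rank of the highest region within 500 bp of a start site of each of the 33 proteasome genes, on a log scale, in the pooled list (diamonds), replicate 1 (circles) and replicate 2 (squares); the dashed line marks rank 1794, that of the last peak. rpn-3 stands far to the left of the others in each list, and pas-1, rpt-3, rpt-5, rpn-6.2 and rpn-10 have no symbol.

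The sequences at the summits of 6 of these peaks, on the WBcel235 (ce11) assembly and read from the RefSeq copy, are given because the counts of short words that follow refer to them. Each is on the strand of its gene, 5′ to 3′, with the summit at base 51. Capitals mark the words GAGCGC and TGTCAT or their reverse complements. The stretches are III:8447105-8447205 on the plus strand for rpn-3, and on the minus strand V:6017741-6017841 for rpt-2, II:4044547-4044643 for rpn-11, IV:1709876-1709976 for pbs-1, II:43786-43886 for rpt-4 and V:11982475-11982575 for rpt-1. The stretch at rpn-11 ends before the first exon.
rpn-3: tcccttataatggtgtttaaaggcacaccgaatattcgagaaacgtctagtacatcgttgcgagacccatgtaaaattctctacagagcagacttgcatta
rpt-2: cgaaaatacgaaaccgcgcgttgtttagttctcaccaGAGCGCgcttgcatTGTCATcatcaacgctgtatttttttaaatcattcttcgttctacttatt
rpn-11: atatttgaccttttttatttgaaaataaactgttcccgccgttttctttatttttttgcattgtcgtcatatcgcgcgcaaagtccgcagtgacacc
pbs-1: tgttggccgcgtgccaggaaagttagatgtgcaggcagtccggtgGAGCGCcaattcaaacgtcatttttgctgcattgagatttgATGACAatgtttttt
rpt-4: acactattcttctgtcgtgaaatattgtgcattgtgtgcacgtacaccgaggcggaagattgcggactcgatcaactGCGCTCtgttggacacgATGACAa
rpt-1: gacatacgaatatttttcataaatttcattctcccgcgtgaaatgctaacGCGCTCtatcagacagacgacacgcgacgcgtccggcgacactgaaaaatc

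Searches covered 6 words on both strands within 50 bp of each summit. The words GAGAGA and GAGCGC, with GACGCA as well as CGTCTC, were taken from earlier results of these data. The words TATCAT and also TGTCAT were taken as core letters of the known SKN-1 binding sequence. GAGCGC lay at 4 of the 7 proteasome peaks (pbs-1, rpt-1, rpt-2 and rpt-4), against 180 of the 1794 peaks (10.03%) and 2.12% of all 30000 pooled regions. At rpt-1 the word began on the summit base itself, at base 51. TGTCAT lay at 3 of the 7 (pbs-1, rpt-2 and rpt-4), against 5.52% of all peaks and 5.17% of all pooled regions. GAGAGA was at none of the 7, against 26.9% of all peaks. GACGCA (14.2% of all peaks), CGTCTC (16.7%) and TATCAT (4.46%) were also at none of the 7. The 7 were taken for lying near a protein-coding start. Among the 830 peaks that were the highest within 500 bp of some protein-coding gene's start, GAGCGC lay at 15.4% and TGTCAT at 4.94%. In that set GAGAGA lay at 23.3%, GACGCA at 18.8%, CGTCTC at 18.4% and TATCAT at 3.86%. The peaks of rpn-3, rpn-11 and pas-4 held none of the 6 words. Among the 14 proteasome genes with a pooled region and no peak, GAGCGC was present at 4 (pas-2, pas-3, pbs-7 and rpn-7) and TGTCAT at 4 (pas-2, rpn-12, rpn-6.1 and rpn-7). A match to these letters describes the sequence and says nothing of which protein binds there, and the shares were not tested.

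Summit sequences of the proteasome peaks had a median of 40.6% G and C, against 45.5% over all peaks and 33.7% over all pooled regions. Over the 830 peaks near protein-coding starts the median was 46.5%. Values at single genes ran from 34.7% at pas-4 to 48.5% at rpt-4. In promoters, taken as the 250 bases before the first annotated start and 50 after it, GAGCGC lay in 7 of 33 proteasome genes (21.2%) against 5.45% of all protein-coding genes. TGTCAT lay in 12 of 33 (36.4%) against 16.3%, and TATCAT in 4 of 33 (12.1%) against 19.4%. GAGAGA was in 6 of 33 (18.2%) against 21.8%, CGTCTC in 2 of 33 against 11.2%, and GACGCA in 1 of 33 against 8.78%. By particle, GAGCGC was in 4 of 14 core and 3 of 19 regulatory promoters, and TGTCAT in 5 of 14 core and 7 of 19 regulatory promoters.

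All 7 proteasome peaks lay upstream of the start site, from 47 bp at rpn-11 to 198 bp at rpn-3, with a median position of -128 bp. Over all protein-coding genes with a peak, 89.7% had it upstream and the median was -185 bp. The replicates placed these summits within a short distance of each other, with median positions of -132 bp in replicate 1 and -136 bp in replicate 2. At rpn-11 the summits lay at -37 and -55 bp in replicates 1 and 2. At rpt-4 they lay at -185 and -173 bp, and at pbs-1 at -204 and -136 bp. The position at rpt-4 is relative to the inner of its annotated starts, because the summit lies in an intron of the longer transcript. With only the first start of each gene, rpt-4 had no peak and the count was 6 of 33, against 4.78% of all protein-coding genes.

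**Figure D2:**
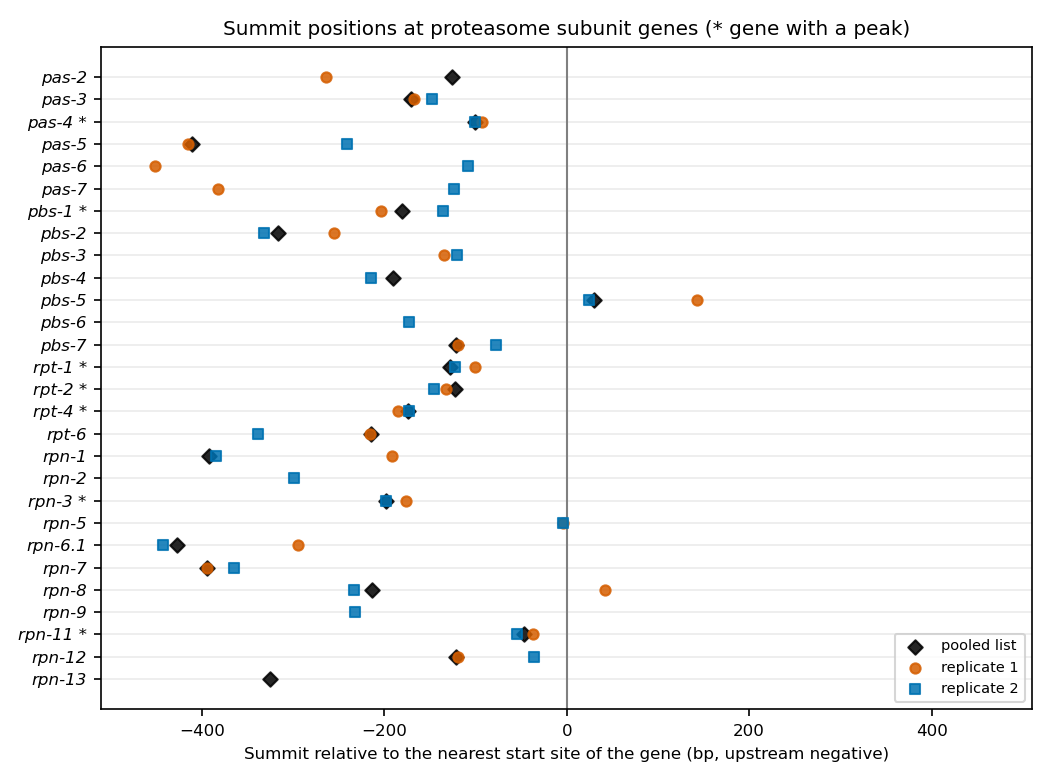
Position of the highest region's summit relative to the nearest start site of each proteasome gene with a region (bp, upstream negative), in the pooled list (diamonds), replicate 1 (circles) and replicate 2 (squares); asterisks mark genes with a peak. Nearly all symbols lie left of 0, and the exceptions are pbs-5 and, in replicate 1, rpn-8.

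Most of these peaks also lay near the start of a neighbouring gene that runs the other way. A second protein-coding start lay within 500 bp of 5 of the 7 summits, or 71.4%, against 23.5% of the 865 peaks near any protein-coding gene. The neighbour of rpn-3 was hsp-110, a gene for a chaperone of the heat shock protein family, with the summit at -246 bp from its start. The neighbour of pas-4 was rpb-3, which encodes a subunit of RNA polymerase II, at -177 bp. That of rpt-2 was aps-1, a clathrin adaptor gene, at -179 bp, and that of pbs-1 was K08D12.3 at -339 bp. In each of these 4 pairs the summit was nearer to the proteasome gene. At rpt-4 it was nearer to nfyc-1, the gene for a subunit of the transcription factor NF-Y, at -71 bp against -174 bp for rpt-4. Peaks at rpn-11 and rpt-1 had no other protein-coding start in reach. Starts of non-coding RNA genes also lay near the summits at rpn-3 (-60 bp from C30C11.14) and pas-4 (+121 bp from C36B1.16), and the summit at rpt-2 fell in an exon of the non-coding RNA F29G9.10.

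Head to head neighbours were frequent over the whole family. A protein-coding neighbour on the opposite strand lay head to head within 1000 bp for 21 of the 33 genes (63.6%), against 21.3% of all protein-coding genes. This held for 5 of the 7 genes with a peak and for 16 of the 26 without one (61.5%). Among all protein-coding genes with a peak it held for 44.7%. Overlapping genes on opposite strands were counted as head to head with a gap of 0 bp, in all of these shares. rpt-4 was counted in this way, through rpoa-49, which overlaps it, and not through nfyc-1. The part of head to head neighbours in the number of proteasome genes with a peak was not tested.

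Regions of any rank were near more of the genes. The pooled list, which holds 30000 regions called on both replicates together and includes background as well as peaks, had a region within 500 bp of 21 of 33 proteasome genes (63.6%), against 34.0% of all protein-coding genes. Core and regulatory particle genes had like shares here, 9 of 14 (64.3%) and 12 of 19 (63.2%). Of the 21 genes, 7 had a peak (33.3%), against 15.2% of all protein-coding genes with a region. That share was 2 of 9 in the core and 5 of 12 in the regulatory particle. The highest region per gene had a median rank of 3684 over the 21 genes and of 9861 over all protein-coding genes with a region. Median ranks were 4136 for the 9 core genes and 2232 for the 12 regulatory genes. The upstream side held the summit at 20 of 21 proteasome genes and at 69.1% of all genes with a region, relative to the nearest start. At rpn-6.1, as at rpt-4, the summit lay in an intron of the gene, upstream of an inner start only. With only the first start of each gene, 19 of 33 genes had a pooled region (57.6%), against 31.3% of all protein-coding genes. Counting every region and not only the highest per gene, 26 pooled regions lay near a proteasome gene. Of these, 14 lay near at least 2 protein-coding genes, against 758 of the 8425 pooled regions near any protein-coding gene. The part of such sharing in the count of 21 genes was not tested.

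**Figure D3:**
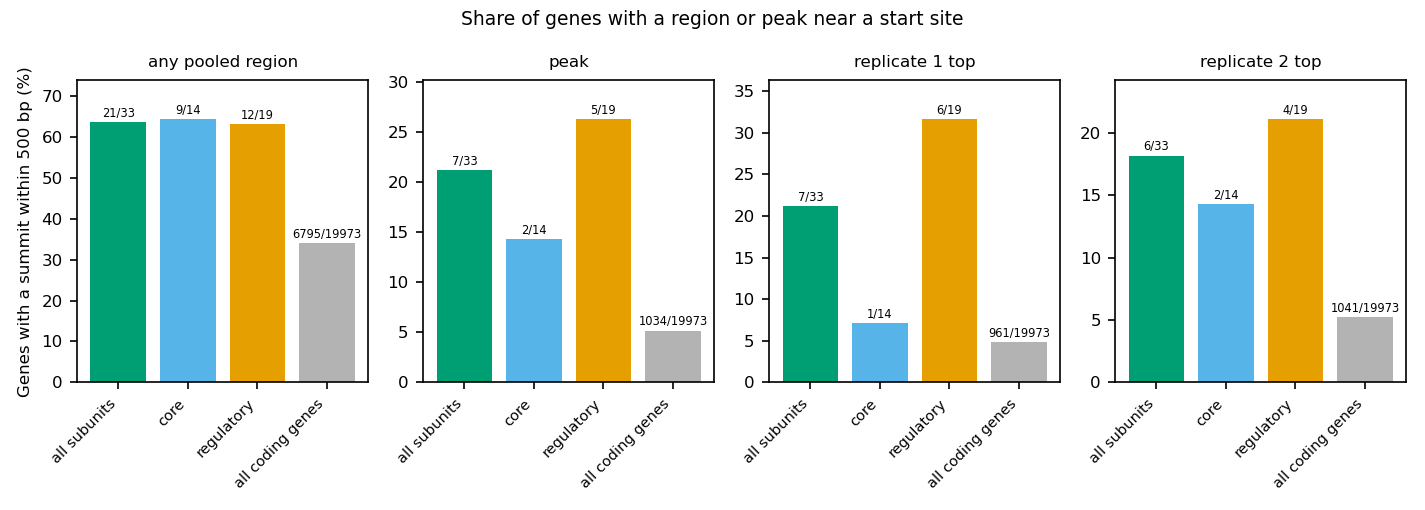
Percent of genes with a summit within 500 bp of a start site, for all 33 proteasome genes, the core particle, the regulatory particle and all 19973 protein-coding genes (the proteasome genes included), by call rule, with the counts above the bars. In each panel all proteasome genes together stand above all coding genes, by 63.6% against 34.0% for any pooled region and 21.2% against 5.18% for peaks.

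Just below the peaks came rpn-12, a lid gene, with a pooled signal of 54.7 and rank 2180, then the ATPase gene rpt-6 (53.7, rank 2284) and the beta ring gene pbs-2 (45.8, rank 3169). The replicates differed on rpt-6, at rank 7564 in replicate 1 (summit at -216 bp) and 1723 in replicate 2 (summit at -338 bp). They differed likewise on pbs-2, at 12561 in replicate 1 and 4182 in replicate 2. rpn-12 ranked 2864 in replicate 1 and 5875 in replicate 2. Its region lay between rpn-12 and rad-23, which encodes a carrier of ubiquitinated proteins to the proteasome, with the summit at -121 bp from rpn-12 and -274 bp from rad-23.

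Other beta ring genes had lower regions. The catalytic subunit gene pbs-5 had a signal of 41.7 and rank 3880, with a summit 30 bp inside the gene, and pbs-7 had 40.5 and rank 4136. pbs-4 had the lowest of all, at 15.9 and rank 27859. In the alpha ring, pas-5 ranked 5130, pas-3 5322 and pas-2 13222. Among non-ATPase genes, rpn-6.1, a lid gene, ranked 3684 and rpn-7, also of the lid, 4124. rpn-8, the partner of rpn-11, ranked 4932 and rpn-1, a large base subunit, 5019. The ubiquitin receptor gene rpn-13 ranked 18319 and had a region in neither replicate.

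No list had a region within 500 bp of pas-1, rpt-3, rpt-5, rpn-6.2 or rpn-10, the last of them the gene for another ubiquitin receptor. The other 28 of 33 genes (84.8%) had a region in at least 1 list, against 47.8% of all protein-coding genes. At rpt-3 the nearest pooled summit lay 629 bp away and ranked 1960, and the nearest in replicates 1 and 2 lay 517 and 507 bp away, just past the 500 bp limit. For the other 4 genes the nearest pooled summit was 989 to 4360 bp away. The genes pas-1, rpn-10, rpn-6.2 and rpt-3 each followed a gene on the same strand, with gaps of 106, 118, 54 and 478 bp. rpt-5 lay head to head with rad-8, with a gap of 608 bp. A same-strand gap of at most 500 bp was found for 5 of the 12 proteasome genes without a pooled region (41.7%). The share was 19.4% of all protein-coding genes without a pooled region. The part of this arrangement in the missing regions was not tested.

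Each replicate alone gave similar totals over the family. A region lay near 23 of 33 genes in replicate 1 (69.7%, against 34.5% of all protein-coding genes) and 26 of 33 in replicate 2 (78.8%, against 35.5%). With each replicate's own 1794 highest regions taken as peaks, the counts were 7 of 33 in replicate 1 (21.2%, against 4.81%) and 6 of 33 in replicate 2 (18.2%, against 5.21%). Replicate 1 gave 1 core gene and 6 regulatory genes, and replicate 2 gave 2 core genes and 4 regulatory genes. The core gene counted in replicate 2 and not in replicate 1 was pas-4. Over the 22 genes with a region in both replicates the ranks correlated with a Spearman's rho of 0.54, against 0.65 over 4686 protein-coding genes. The ranks are those of the highest region in each replicate, which need not be the same site. The summits lay within 50 bp of each other at 11 of the 22 genes (50%), against 39.8% of the 4686. These are values across genes from the same 2 libraries, which share summits between neighbours, and serve as a description.

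**Figure D4:**
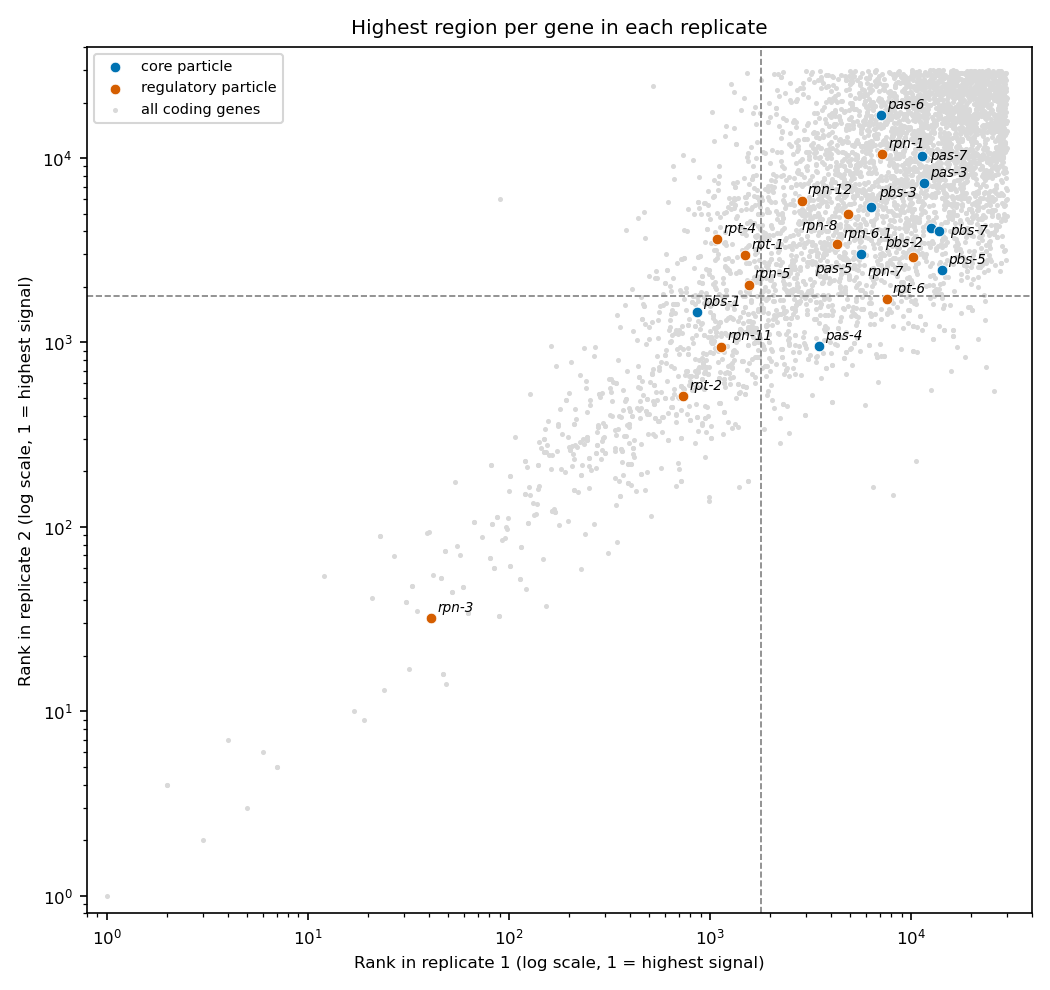
Rank of the highest region per gene in replicate 1 against replicate 2, both on log scales, for the 22 proteasome genes with a region in both (core particle blue, regulatory particle orange) and all 4686 protein-coding genes with one in both (grey, proteasome genes included); dashed lines mark rank 1794. rpn-3, rpt-2, rpn-11 and pbs-1 lie in the lower left corner, below the lines of both replicates.

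Medians by particle moved between the replicates. Core genes had a median rank of 11362 in replicate 1 (n = 11) and 4799.5 in replicate 2 (n = 12). Regulatory genes had 2210.5 in replicate 1 (n = 12) and 2938.5 in replicate 2 (n = 14). Regulatory genes ranked higher at the median in both. No test of this difference was made.

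A stricter or looser peak list changed the counts as follows. Within 250 bp of a start the same 7 of 33 genes had a peak (21.2%, against 3.23% of all protein-coding genes), and within 1000 bp the count was also 7 of 33, against 6.85%. The upper 897 peaks by signal left 4 of 33 genes (12.1%, against 2.81%). These were rpn-3, rpt-2, rpn-11 and pbs-1. A further 4 of 33 genes (rpn-5, pbs-3, pas-6 and pas-7) had a region in both replicates and none in the pooled list (12.1%, against 1.50% of all protein-coding genes).

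Genes that work beside the proteasome were read from a list of 21 drawn up by name. Of these, 11 of 21 had a pooled region, against 34.0% of all protein-coding genes, and 5 of 21 a peak, against 5.18%. cdc-48.1, which encodes an AAA ATPase that extracts ubiquitinated proteins, had a signal of 688 and ranked 2 in the pooled list, 3 in replicate 1 and 2 in replicate 2. The polyubiquitin gene ubq-1 had 113 (rank 461), and ubq-2, which encodes ubiquitin joined to a ribosomal protein, had 89.98 (rank 754). aip-1, for a zinc finger protein that associates with the proteasome, had 68.4 (rank 1383). ubql-1, for the carrier protein ubiquilin, had 64.7 (rank 1558), but no region in replicate 1. The ubiquitin-activating enzyme gene uba-1 had a region at rank 7643. skn-1 had one at rank 10265 in the pooled list. Its highest regions in the replicates, which need not be the same site, ranked 472 in replicate 1 and 5121 in replicate 2. Of 6 genes for the COP9 signalosome, a complex related to the lid, none had a peak and 2 had a pooled region, csn-4 at rank 13416 and csn-5 at rank 19601. With 6 genes these counts are near the all-gene shares of 5.18% with a peak and 34.0% with a pooled region.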

How the data were processed

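ChIP-seq region lists of 2 biological replicates of 1 group were used, on ce11. Per the listing deposited with them, the authors called regions on single-replicate or pooled alignments with a control. The aligner, the peak caller and the discovery-rate cutoff were not given in the sources used here. Columns were read by the narrowPeak order: the deposited signal, on an unstated scale, the deposited −log10 of the q-value, which was not used for calls, and the summit offset. The ce10 lists were not used here. The lists hold no read counts, so depth is unknown and no counting interval can be given.

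Summits (column 2 plus column 10, written 1-based) were joined to transcript starts of protein-coding genes from Ensembl release 115, leaving out the mitochondrial genome. Each gene took its highest region within 500 bp. Every last region end lay within its WBcel235 chromosome. Annotated starts can be trans-splice sites. Neighbouring genes were taken among protein-coding genes. Python 3.11.15, pandas 2.3.3, numpy 2.4.6, scipy 1.17.1 and matplotlib 3.10.9 were used, and the join was tested on simulated data. Overlap meant at least 1 bp.

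The members, lists, words and alternatives were chosen with earlier results of these data known. Every member was accounted for, and those with a peak were given in full. Counts are descriptions beside the same count over all protein-coding genes, and no test across genes was run. Genes that share a region are not independent.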

Additional observations from a re-analysis of the deposited data

How the results depend on the processing

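Of 43 recomputed values, 34 kept within the limits set and 9 moved. The limit was 1.5 times for counts and, for medians, the SD between the 2 replicates' medians. The count of proteasome genes with a peak was 7, with 2 in the core and 5 in the regulatory particle. It was 4, with 1 core and 3 regulatory genes, both with the upper 897 peaks and with the peaks that each replicate also ranked in its first 1794 regions. Leaving out either replicate, by taking the first 1794 regions of the other, it was 6 to 7 in all, 1 to 2 in the core and 4 to 6 in the regulatory particle. The median rank of the regions was 3684, and 3231.5 to 5664 in single replicates. Within 250 bp of a start it was 2284, which is inside the SD but over 1.5 times from 3684. The median peak position of -128 bp became -125 bp with only the first start of each gene, since rpt-4 dropped out. The causes of the other moves were not tested. Counts of genes with a pooled region stayed within 1.5 times under each alternative run. At least 1 of the 6 words lay at 4 of 7 proteasome peaks, against 51.2% of all peaks, and at 5 of 7 with a flank of 100 bp, against 70.3%, so both counts are near the share over all peaks. No paired analysis was possible because the series has 1 group. Depth is unknown, so a missing region does not show that ZTF-4 was absent.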

Other observations

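GAGCGC and TGTCAT stood together within 50 bp of the summit in 26 of the 30000 pooled regions. Of these, 9 lay near a protein-coding start and 5 of those near a proteasome gene, which were rpt-2, pbs-1, rpt-4, rpn-7 and pas-2. At rpn-7, pas-2 and rpt-4 the summit was nearer to the start of a neighbour. It lay at -22 bp from F49C12.9 against -394 bp from rpn-7, and at -25 bp from D1054.1 against -126 bp from pas-2. At rpt-4 it lay at -71 bp from nfyc-1 against -174 bp from rpt-4. Among the 1794 peaks 6 held both words, and 3 of them were the peaks of rpt-2, pbs-1 and rpt-4. The other 3 peaks were near ZK112.4, near tag-322 and, on the X chromosome, near no protein-coding start. In promoters the pair was present in 4 of 33 proteasome genes (12.1%) and in 143 of 19973 protein-coding genes (0.716%). The 4 were pas-2, pbs-1, rpt-1 and rpt-2. The promoters of rpt-4 and rpn-7 did not hold both words, and rpt-1 held only GAGCGC near its summit. The pairing of these words was chosen after their values were seen, and no test was made of it.

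The region at pas-2 shows the pair outside the peaks, at pooled rank 13222, on the plus strand at V:10770218-10770292, with the summit at base 25. At rpn-7, at pooled rank 4124, the stretch on the plus strand at IV:9316216-9316287 has the summit at base 22, and its GAGCGC lies beyond the stretch, in an exon of the neighbour F49C12.9. Both stretches stop at the first exon of the neighbouring gene, and capitals mark either word or its reverse complement.
pas-2: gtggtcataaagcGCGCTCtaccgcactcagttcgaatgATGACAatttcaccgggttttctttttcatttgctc
rpn-7: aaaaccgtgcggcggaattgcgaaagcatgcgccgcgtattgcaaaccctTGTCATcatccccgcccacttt

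The lid gene rpn-5 had a region in both replicates and none in the pooled list, and only replicate 1 placed it among its 1794 highest regions. Its region lay at II:4698253-4698608 in replicate 1, with rank 1557, and its summit was at the same base in replicate 2, with rank 2056, at -4 bp from the start of rpn-5 and -290 bp from that of scc-1, a cohesin gene. The nearest pooled summit was 3451 bp away. Of 1544 regions among the 2500 highest of replicate 1 that overlapped one of the 2500 highest of replicate 2, 5 overlapped no pooled region, and that of rpn-5 was 1 of them. The beta ring gene pbs-3 had the same pattern at lower ranks, 6321 in replicate 1 and 5417 in replicate 2, with the nearest pooled summit 5238 bp away. The other 2 genes with a region in both replicates and none in the pooled list were pas-6 and pas-7, whose summits differed between the replicates and whose nearest pooled summits lay 723 and 737 bp away. The cause was not tested. The 54 bases upstream of rpn-5, on the minus strand at II:4698428-4698481, are given because no peak marks this start.
rpn-5: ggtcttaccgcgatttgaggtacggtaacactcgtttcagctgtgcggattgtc

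In replicate 2 alone, rpn-9 had a region at rank 2052, rpn-2 one at rank 3056 and pbs-6 one at rank 14625, and none of the 3 genes had a region in replicate 1 or the pooled list.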
